A study of Mus musculus with 12 samples.

Results

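The genes described here are a glucose transporter and the enzymes that turn glucose into lactate, followed in thymocytes of wild-type mice and of mice with a mutation in a condensin II subunit. They were chosen by symbol from a list of 10, namely Slc2a1, Hk2, Pfkl, Aldoa, Gapdh, Pgk1, Pgam1, Eno1, Pkm2 and Ldha. The expression table of 18138 genes held 9 of them, and Hk2 was not analysed here. Each gene has a detection p-value on each array, meant as a measure of signal above background, which Pfkl below did not follow. A gene was tested when this value was under 0.05 on at least 3 of the 12 arrays. This left 8247 genes, 8 of the members among them.

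Glycolysis splits glucose into pyruvate in the cytosol and yields ATP and NADH, and lactate dehydrogenase recycles the NADH by reducing pyruvate to lactate. Dividing lymphocytes are known for a high glycolytic flux, which also feeds side branches that make ribose, serine and glycerol phosphate. In the thymus, small resting cells positive for both CD4 and CD8 follow a burst of division of larger blast cells, and CD71, the transferrin receptor that imports iron, is a surface marker of the dividing cells. Transcription factors of the Myc and hypoxia-inducible families are known to drive several glycolysis genes.

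The thymocytes came from mice of the C57BL/6J strain, of both sexes in equal parts and 8 to 12 weeks old, and were sorted as positive for both CD4 and CD8 and with a low forward scatter gate in every sample title. The 4 groups were CD71-negative and CD71-positive cells of wild-type (Caph2+/+) and of mutant (Caph2nes/nes) mice, the latter homozygous for the Caph2(I15N) allele of Ncaph2, the kleisin subunit of condensin II. Each group had 3 single-colour arrays, numbered 1 to 3 in the sample descriptions, whereas the titles number the CD71-positive samples 4 to 6. As the labels leave unsaid whether these were separate animals, a p-value here reflects the scatter among the arrays alone and that scatter may be technical. In such sorted bulk samples, fewer cells of a type and less RNA per cell cannot be told apart.

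Mean deposited signal per array ran from 95.1 to 203, a ratio of 2.13, and 5893 to 7415 genes were detected per array. Tfrc, which encodes CD71, rose in CD71-positive cells of both genotypes, by 1.15 ± 0.28 (log2, SE) in wild type and 1.30 ± 0.28 in mutants, with limma adjusted p of 0.0143 and 0.00679. Ncaph2 was detected on all arrays and did not pass between genotypes, with log2 differences of -0.11 ± 0.16 and -0.04 ± 0.16, and since the allele changes a residue this does not check the genotype. Of the thymocyte markers 9 of 10 were tested. Cd4 and Cd8b1 were detected on all arrays and Cd8a on 0.

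Because Gapdh and Ldha were the members that passed a test, their promoters are shown first, beside that of Slc2a1, the transporter at the head of the pathway. Each sequence is the 200 bases before a RefSeq start site in GRCm38.p6, read 5′ to 3′ on the strand of the gene. Capitals mark CACGTG, the E-box that Myc binds, and ACGTG and GCGTG, the core of hypoxia response elements, on either strand. CACGTG contains ACGTG on both strands, so the matches overlap.
Ldha, first of 2 start sites, chr7:46845604-46845803, plus strand: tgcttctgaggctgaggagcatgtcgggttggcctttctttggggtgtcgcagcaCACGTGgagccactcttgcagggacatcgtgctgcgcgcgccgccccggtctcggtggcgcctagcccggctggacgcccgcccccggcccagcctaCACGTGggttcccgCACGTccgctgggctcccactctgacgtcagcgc
Gapdh, chr6:125165774-125165973, minus strand: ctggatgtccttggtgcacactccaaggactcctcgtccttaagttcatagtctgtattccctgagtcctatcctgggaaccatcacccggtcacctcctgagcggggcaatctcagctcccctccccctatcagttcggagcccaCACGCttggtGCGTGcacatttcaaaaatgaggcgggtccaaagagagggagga
Slc2a1, chr4:119108545-119108744, plus strand: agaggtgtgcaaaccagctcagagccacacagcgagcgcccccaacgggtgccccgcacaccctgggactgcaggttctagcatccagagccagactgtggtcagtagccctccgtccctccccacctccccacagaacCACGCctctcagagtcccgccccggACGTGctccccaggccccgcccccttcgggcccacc

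The Ldha window held CACGTG at 145 and 48 bases before the start, and ACGTG 5 times when the overlapping matches are counted. At least 2 copies of CACGTG occur in 0.341% of 32851 mouse promoter windows of this length, and at least 1 in 5.26%. The Gapdh window held GCGTG 54 and 44 bases before the start, and the Slc2a1 window held GCGTG at 61 and ACGTG at 36. RefSeq matched 10 of 10 members with 16 windows in all. CACGTG lay in a window of 1 member, ACGTG in windows of 7 and GCGTG in windows of 6, against 14.0% and 24.7% of all windows for the shorter motifs. GGGCGG, the GC box, lay in windows of 7 members and in 31.0% of all windows. Members with several start sites have several windows, so a count of members is not on the same footing as a share of windows. A match is a run of letters and was not tested for binding.

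Values below are log2 signals after background correction and quantile normalization, so differences between groups are relative to the other genes of an array. Gapdh, glyceraldehyde-3-phosphate dehydrogenase, makes the NADH of glycolysis. In wild-type CD71-negative cells it read 10.59, 10.25 and 9.24, and in wild-type CD71-positive cells 10.75, 11.17 and 10.58. Among mutants, CD71-negative cells gave 10.00, 9.69 and 9.36 and CD71-positive cells 11.09, 10.98 and 10.80. The mutant CD71-positive arrays all lay above the mutant CD71-negative ones, whereas the wild-type groups overlapped at array 1 of the CD71-negative group.

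Ldha encodes the muscle-type subunit of lactate dehydrogenase. It read 9.60, 9.66 and 8.40 in wild-type CD71-negative cells and 9.91, 10.50 and 9.72 in wild-type CD71-positive cells. In the mutants, CD71-negative cells gave 9.29, 9.02 and 8.80 and CD71-positive cells 10.65, 10.62 and 10.23. The CD71-positive arrays were higher than every CD71-negative array in both genotypes, by a narrow gap in wild type. In the deposited signal, before any correction, Ldha ran from 350 to 868 in wild-type and 486 to 827 in mutant CD71-negative cells, and from 893 to 1653 in wild-type and 1178 to 2075 in mutant CD71-positive cells.

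**Figure D1:**
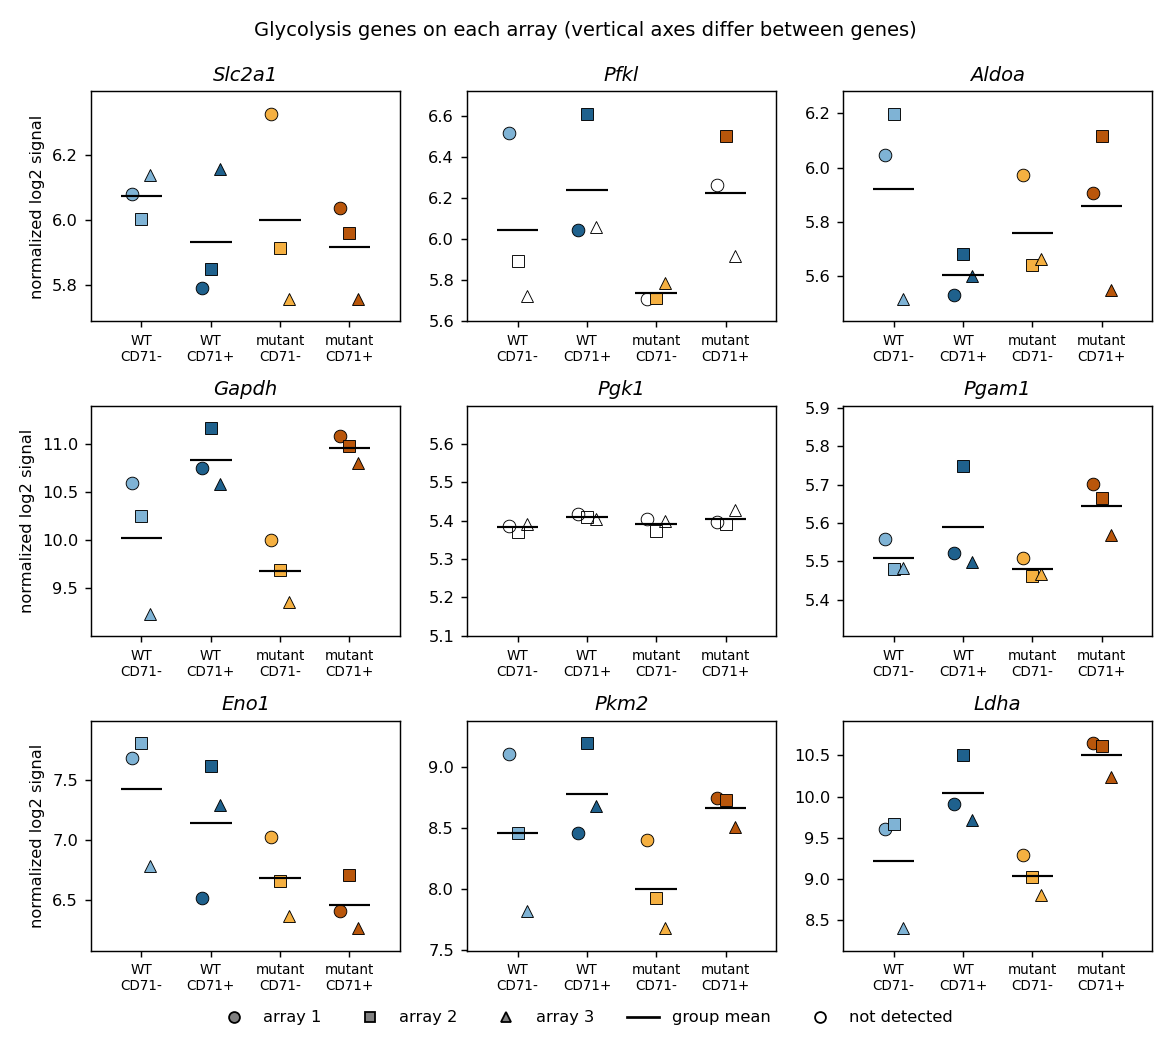
Normalized log2 signal (vertical axis, its range differing between genes) of the 9 members in the table on each of 12 arrays, by group. Symbols give the array number, bars the mean of 3 arrays, and open symbols an array that did not detect the gene. Ldha is higher on every CD71-positive array than on any CD71-negative array of its genotype, Pgk1 was detected on none and Pfkl on 6.

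Between mutant subsets, Gapdh and Ldha rose in CD71-positive cells. Gapdh rose by 1.27 ± 0.32 (log2, SE, 3 arrays per group), or 2.42-fold, with a limma adjusted p of 0.0162. Ldha rose by 1.46 ± 0.34, or 2.76-fold, with an adjusted p of 0.0107. These were 2 of 8 tested members with an adjusted p under 0.05, against 28.8% of all tested genes, of which 14.5% were higher and 14.3% lower, so the share of members is near the background. The call for Gapdh was lost without array 3 of the mutant CD71-negative group (adjusted p = 0.0595) or without array 1 of the mutant CD71-positive group (0.0538), and the call for Ldha was kept in 24 of 24 alternative settings.

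In wild type the same comparison gave 0 of 8 members past the threshold in limma, against 25.1% of all tested genes, 12% higher and 13.1% lower. Gapdh differed by 0.81 ± 0.32, or 1.75-fold, with an adjusted p of 0.104, and Ldha by 0.82 ± 0.34, or 1.77-fold, with an adjusted p of 0.114. Those 2 were the members with an unadjusted p under 0.05, at 0.0336 and 0.0381. Array 3 of the wild-type CD71-negative group held the lowest value of both genes, and without it the differences were 0.41 and 0.42. Without array 1 of the same group Gapdh passed, at 1.09 and an adjusted p of 0.04.

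Whether the CD71 difference itself changed with genotype was tested as a difference of differences. For Ldha it was 0.64 ± 0.48, with a 95% interval of -0.44 to 1.72 and an adjusted p of 0.946. For Gapdh it was 0.47 ± 0.46, with an interval of -0.56 to 1.498 and an adjusted p of 0.946. Without array 3 of the wild-type CD71-negative group it was 1.07 for Ldha and 0.88 for Gapdh, with adjusted p of 0.392 and 0.425. Other single arrays moved Ldha to 0.42 without array 2 of that group, and Gapdh to 0.18 without array 1 of it and to 0.31 without array 3 of the mutant CD71-negative group. Of the 8 members 0 passed in limma, 0 had an unadjusted p under 0.05, and 0.0121% of all tested genes passed. The call in mutants and its lack in wild type are thus not shown to differ.

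**Figure D2:**
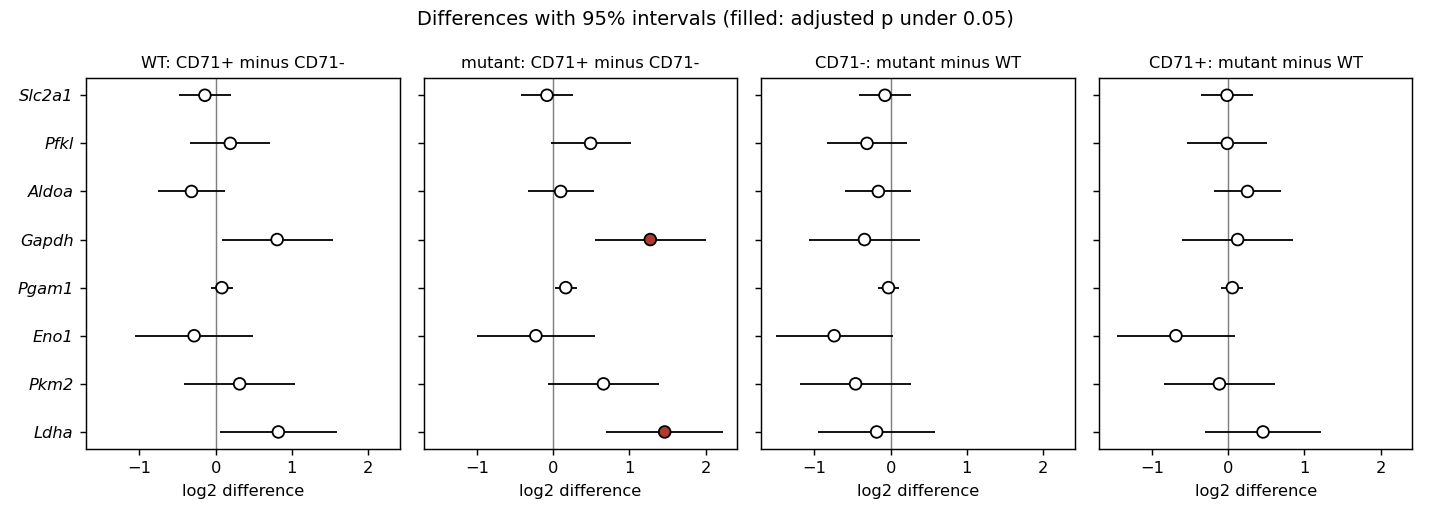
Log2 difference (horizontal axis) of each of the 8 tested members in 4 comparisons, with the 95% interval from the linear model over 12 arrays. Filled points have an adjusted p under 0.05, which only Gapdh and Ldha reach, between mutant CD71-positive and CD71-negative cells.

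The transporter and the early enzymes gave smaller values. Slc2a1, the widely expressed glucose transporter GLUT1, had group means of 6.07 ± 0.07 (SD, n = 3) and 5.93 ± 0.20 in wild-type CD71-negative and CD71-positive cells and 5.999 ± 0.30 and 5.92 ± 0.15 in the mutant counterparts. Its CD71 differences were -0.14 ± 0.15 in wild type and -0.08 ± 0.15 in mutants, with 95% intervals of -0.48 to 0.20 and -0.42 to 0.26. All 4 groups overlapped for this gene. Aldoa, the aldolase that splits fructose 1,6-bisphosphate, differed by -0.32 ± 0.19 in wild type and 0.10 ± 0.19 in mutants, with adjusted p of 0.283 and 0.754.

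Pfkl, the liver-type subunit of phosphofructokinase, was detected on 6 of 12 arrays, 1 or 2 in each group. Its CD71 difference was 0.19 ± 0.23 in wild type and 0.49 ± 0.23 in mutants, with adjusted p of 0.614 and 0.153. The detection p-values of 13656 of 18138 genes are whole steps of 1/798 on all arrays, within 0.01 of a step. Those of the remaining genes are not, Pfkl among them with whole steps on 2 arrays. Why these p-values lie off the steps is not given by the sources used here. On array 1 of the mutant CD71-positive group, Pfkl had a detection p of 0.490 at a deposited signal of 183. Slc2a1 had a detection p of 0 at 163 on the same array, so the detection count of Pfkl does not measure how dim it is. The detection filter and the background correction used both kinds of gene alike. Pgk1, phosphoglycerate kinase, was not detected on any array, with a deposited signal of 70.5 to 100.2, and no level or difference can be given for it.

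Of the enzymes after Gapdh, Pgam1, the phosphoglycerate mutase, lay between 5.46 and 5.75 on all arrays. Its mutant CD71-positive arrays were all above the mutant CD71-negative ones, by 0.17 ± 0.06, with an unadjusted p of 0.0278 and an adjusted p of 0.0814. Pgam1 passed in 8 of 24 alternative settings, and the difference was 0.39 in the authors' processed values (adjusted p 0.0382), 0.36 with normexp (0.0382) and 0.56 with scaling to the 75th percentile (0.436). Pkm2, listed today as Pkm, is the pyruvate kinase gene of most tissues. It read 9.11, 8.46 and 7.83 in wild-type CD71-negative cells and 8.46, 9.20 and 8.68 in wild-type CD71-positive cells, and these groups overlapped. In mutants, CD71-negative cells gave 8.40, 7.93 and 7.68 and CD71-positive cells 8.75, 8.73 and 8.51, which did not overlap. The differences were 0.31 ± 0.32 and 0.66 ± 0.32, with adjusted p of 0.540 and 0.163. The values do not separate the splice forms PKM1 and PKM2.

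Counted by overlap alone, CD71-positive arrays were all above CD71-negative ones for 1 of 8 members in wild type, against 18.7% of all tested genes, and all below for 0 members against 21%. In mutants this held for 5 of 8, namely Pfkl, Gapdh, Pgam1, Pkm2 and Ldha, against 21.7%, and for 0 members in the other direction against 25.1%. The median difference of the 8 members was 0.14 in wild type and 0.33 in mutants, beside -0.01 for all tested genes in each.

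Eno1, the enolase of most cell types, had its highest mean in wild-type and its lowest in mutant cells. In wild type it read 7.68, 7.81 and 6.78 in CD71-negative and 6.52, 7.62 and 7.30 in CD71-positive cells. In mutants it read 7.03, 6.66 and 6.37 in CD71-negative and 6.40, 6.71 and 6.26 in CD71-positive cells. The group means in that order were 7.43 ± 0.56 (SD, n = 3), 7.14 ± 0.57, 6.68 ± 0.33 and 6.46 ± 0.23, and neighbours in the order overlapped. Mutant cells differed from wild type by -0.74 ± 0.34 in the CD71-negative and -0.68 ± 0.34 in the CD71-positive subset. The unadjusted p were 0.0572 and 0.0748 and the limma adjusted p 0.507 and 0.673, so Eno1 did not pass in either.

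No other member came closer between genotypes. In limma 0 of 8 members passed in CD71-negative and 0 of 8 in CD71-positive cells, 0 had an unadjusted p under 0.05 in either, and 0.424% of all tested genes passed in each. Arrays of the genotypes were apart for 0 of 8 members in either subset, against 14.5% and 14.6% of all tested genes. The 8 values in CD71-negative cells ran from -0.74 to -0.03, all below 0, but the sign turned for Slc2a1, Pgam1 or Ldha in some alternative settings. Ldha differed by -0.18 ± 0.34 in CD71-negative and by 0.46 ± 0.34 in CD71-positive cells, with 95% intervals of -0.95 to 0.58 and -0.31 to 1.22. Single arrays moved these values. Without array 3 of the wild-type CD71-negative group the differences in CD71-negative cells were -0.60 for Ldha and -0.76 for Gapdh, without array 1 they were 0.0068 and -0.06, and without array 2 they were 0.04 and -0.24. Leaving out array 1 or 3 of the mutant CD71-negative group gave -0.31 and -0.07 for Ldha, and array 3 gave -0.18 for Gapdh. In CD71-positive cells, leaving out array 3 or 2 of the wild-type group gave 0.29 and 0.68 for Ldha and -0.002 and 0.29 for Gapdh. The intervals of Gapdh ran from -1.07 to 0.39 and from -0.60 to 0.85.

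The members varied more between arrays of a group than most genes did. The pooled SD within groups was 0.42 for Gapdh, 0.45 for Eno1, 0.42 for Pkm2 and 0.44 for Ldha, against a median of 0.08 over all tested genes, and 96.7% to 97.5% of tested genes had a lower SD than these 4. The deviations are given here beside the brightness of the array. The array with the lowest mean signal of its group gave the highest value in 3 of 4 groups for Pfkl, Aldoa, Gapdh, Pgam1, Eno1 and Pkm2, in 2 for Ldha and in 1 for Slc2a1, against a mean of 1.38 over all tested genes. Array 3 of the wild-type CD71-negative group, the brightest there, was the lowest for 6 of 8 members, with a median deviation of -0.52. Array 2 of the wild-type CD71-positive group, the dimmest there, was the highest for 7 of 8. In mutant CD71-positive cells the dimmest array, array 2, was not the highest for Gapdh or Ldha. With the log2 mean signal of the array as a covariate, an alternative added after these values were seen, 3 members passed in wild type. They were Gapdh at 1.04, Pkm2 at 0.60 and Ldha at 1.04, with adjusted p of 0.0126, 0.0192 and 0.0264. In mutants 3 members passed in that setting, Pkm2 joining Gapdh and Ldha at 0.56 with an adjusted p of 0.0189. What array brightness stands for was not tested.

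**Figure D3:**
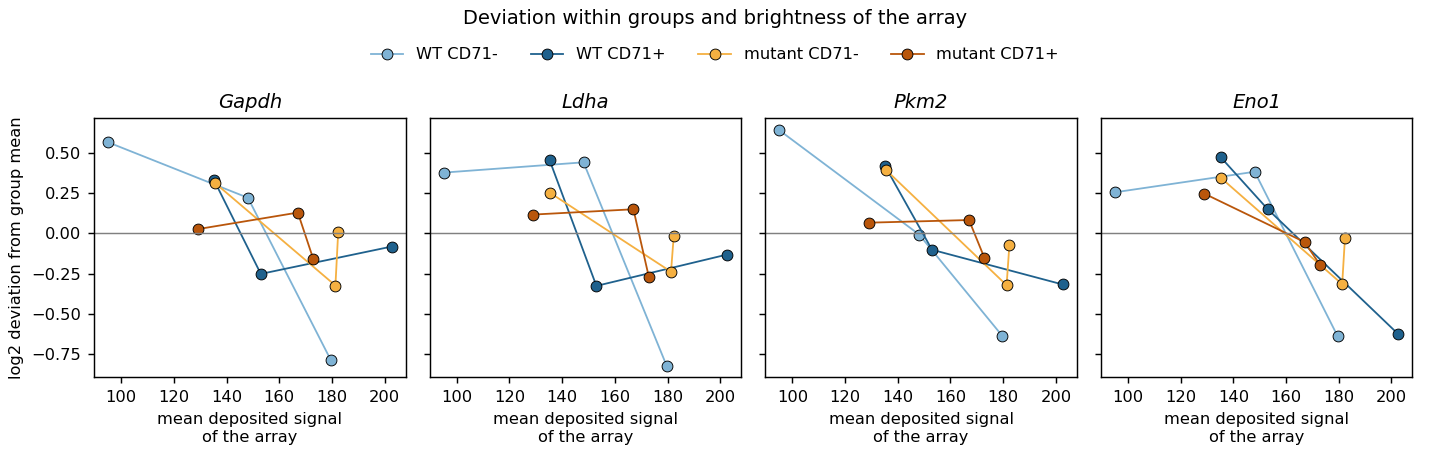
Deviation of Gapdh, Ldha, Pkm2 and Eno1 from the mean of their group (vertical axis, log2) against the mean deposited signal of the array (horizontal axis), with the 3 arrays of a group joined by a line. In wild-type CD71-negative cells the brightest array, array 3, is the lowest for all 4 genes.

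Thymocyte identity, division and other cell types also moved with the CD71 comparison. Beside the counts below, 12% of all tested genes rose and 13.1% fell in wild type, and 14.5% rose and 14.3% fell in mutants. Of 9 tested thymocyte markers 7 fell and 1, Tfrc, rose in each genotype, with median differences of -0.98 in wild type and -1.21 in mutants. Their summed normalized signal was 18624 to 20715 in wild-type CD71-negative and 8762 to 10443 in wild-type CD71-positive cells, and 17400 to 18330 and 7604 to 7899 in the mutant counterparts. Their part in the values of the members was not tested. Of the proliferation genes 5 of 7 tested rose in each genotype, among them Top2a, a topoisomerase of dividing cells. Their median difference was 3.42 in wild type and 3.20 in mutants. Among CD71-negative cells, mutant arrays were all above wild-type ones for 5 of 7, against 14.5% of all tested genes apart in either direction. The sums were 477 to 673 in mutant and 388 to 417 in wild-type CD71-negative cells, and 0 of 7 passed in limma. The part of division in the values of the members was not tested. Markers of myeloid and dendritic cells rose with an adjusted p under 0.05 for 7 of 10 tested in mutants and 0 of 10 in wild type. Tyrobp, among the 7, was detected on 0 CD71-negative arrays and passed the detection filter through CD71-positive arrays alone. Lyz2, H2-Aa and Fcer1g were detected on 0 wild-type CD71-negative arrays. The filter thus favours markers that are high in CD71-positive cells. For the difference of differences 0 of 10 passed. By overlap alone, CD71-positive arrays were all above CD71-negative ones for 8 of 10 in wild type and 9 of 10 in mutants. The shares over all tested genes were 18.7% and 21.7%. The summed normalized signal of the 15 markers in the table includes the background level of undetected ones. It was 641 to 643 in wild-type and 661 to 673 in mutant CD71-negative cells and 744 to 908 in wild-type CD71-positive cells. In the mutant CD71-positive group it was 1408, 2719 and 942 on arrays 1, 2 and 3. Of 15 such markers in the table, Itgax and Lyz1 were detected on no array. On arrays 1, 2 and 3 of the mutant CD71-positive group Ldha read 10.65, 10.62 and 10.23 and Gapdh 11.09, 10.98 and 10.80. Without array 2 of that group Gapdh rose by 1.25 and Ldha by 1.39, with adjusted p of 0.0477 and 0.0377. Arrays 1 and 3 also had marker sums above those of mutant CD71-negative cells, so leaving out array 2 cannot separate the part of myeloid and dendritic cells. Their part in the values was not tested. Of the erythroid markers, a lineage with high CD71, 0 of 7 in the table could be tested.

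Among 25 other genes for enzymes and transporters of the pathway, 8 were tested. Against 12% of all tested genes in wild type and 14.5% in mutants, 1 of these rose in each genotype. This was Tpi1, triosephosphate isomerase, the enzyme between aldolase and Gapdh, a step that the member list lacks. It read 6.10, 6.13 and 5.87 in wild-type CD71-negative cells against 8.19, 8.66 and 8.13 in CD71-positive cells. In mutants it read 5.95, 5.72 and 5.79 against 8.60, 8.51 and 8.32. The groups were far apart in both genotypes. Tpi1 rose by 2.29 ± 0.14, or 4.91-fold, in wild type and by 2.66 ± 0.14, or 6.32-fold, in mutants, with limma adjusted p of 7.27e-06 and 3.31e-06. Slc2a3, the neuronal-type glucose transporter GLUT3, differed by -0.28 ± 0.15 and -0.04 ± 0.15 and Pfkm, the muscle-type phosphofructokinase, by -0.20 ± 0.07 and -0.06 ± 0.07, none of which passed.

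Of 8 tested regulators of glycolysis, 1 fell in each genotype, against 13.1% of all tested genes in wild type and 14.3% in mutants. Txnip, an arrestin-like protein that lowers glucose uptake, read 9.58, 9.52 and 9.28 in wild-type CD71-negative cells and 6.20, 7.10 and 8.28 in wild-type CD71-positive cells. In mutants it read 8.42, 8.33 and 9.16 against 6.50, 6.66 and 6.23. Within each genotype, all CD71-positive arrays were lower than all CD71-negative arrays. Txnip fell by 2.27 on the log2 scale in wild type (SE 0.45, adjusted p 0.00521) and by 2.18 in mutants (SE 0.45, adjusted p 0.00580). Hif1a, a hypoxia-inducible factor subunit, differed by 0.04 ± 0.05 and -0.08 ± 0.05 and did not pass. Myc and Pfkfb3 were detected on 0 arrays.

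Of 8 tested targets of the hypoxia response, 2 fell and 0 rose in each genotype. Over all tested genes, 13.1% fell and 12% rose in wild type, and 14.3% fell and 14.5% rose in mutants. Bnip3l, a receptor for the removal of mitochondria, fell by 1.14 (log2, SE 0.19) in wild type and 1.26 (SE 0.19) in mutants, with adjusted p of 0.00216 and 0.00111. Pdk1, the kinase that switches off pyruvate dehydrogenase, fell by 0.70 (SE 0.20) in wild type and by 1.59 (SE 0.20) in mutants, with adjusted p of 0.0282 and 0.000344, and the fall in wild type passed in 16 of 24 alternative settings. The CD71 difference of Pdk1 did not pass between genotypes (-0.89, adjusted p = 0.617). Pdk1 was also the 1 gene that fell among 7 tested genes of pyruvate entry into mitochondria.

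**Figure D4:**
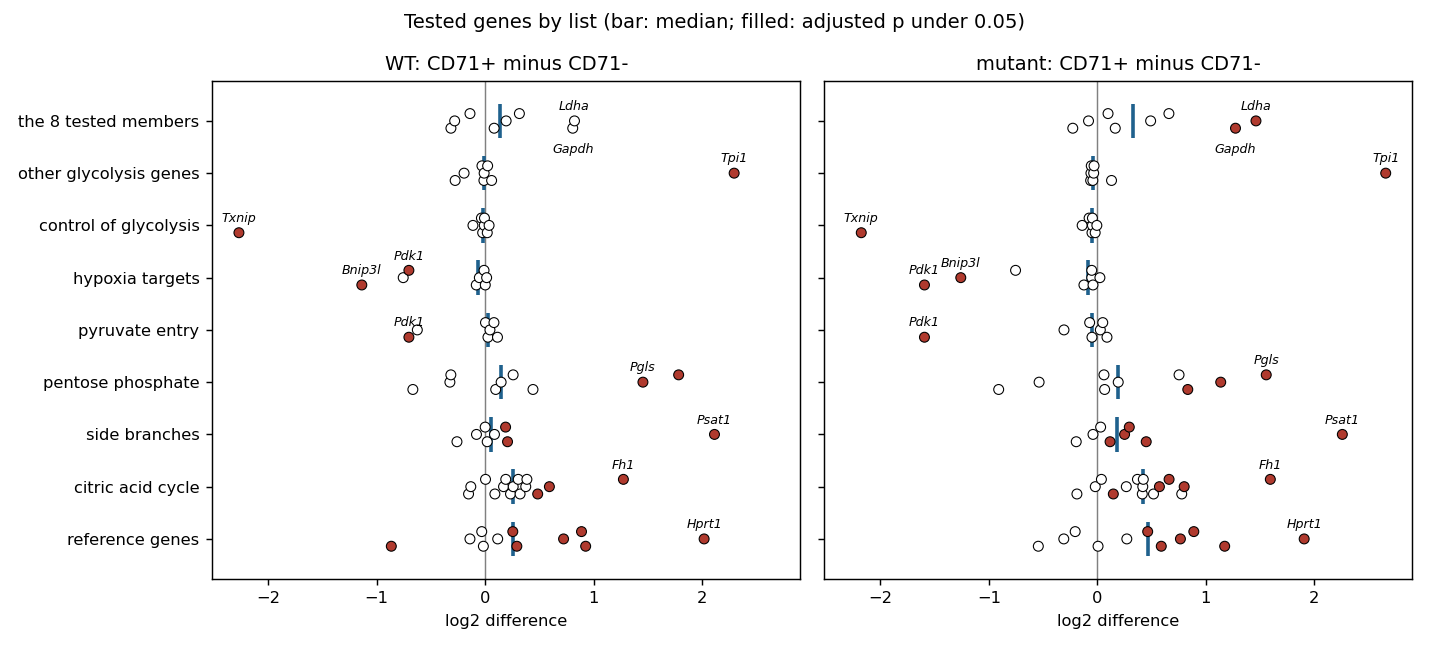
Log2 difference between CD71-positive and CD71-negative cells (horizontal axis) of each tested gene, by list, in wild type (left) and mutants (right). Filled points have an adjusted p under 0.05 and bars are list medians. Tpi1 at 2.29 and 2.66 and Txnip at -2.27 and -2.18 lie farther from 0 than the 8 members.

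Some genes also rose in the branches that leave glycolysis. In the pentose phosphate branch, 2 of 9 tested genes rose in wild type and 3 of 9 in mutants, and 0 fell in limma. The shares that rose over all tested genes were 12% in wild type and 14.5% in mutants, and 13.1% and 14.3% fell. Differences ran from -0.67 to 1.78 in wild type and from -0.91 to 1.56 in mutants. By overlap alone, 3 of 9 were higher and 2 of 9 lower in wild type, against 18.7% and 21% of all tested genes. In mutants 4 of 9 were higher and 0 lower, against 21.7% and 25.1%. Pgls, 6-phosphogluconolactonase, rose by 1.45 ± 0.27 and 1.56 ± 0.27, and Prps1, which makes the activated ribose for nucleotides, by 1.78 ± 0.38 and 1.14 ± 0.38, the last with an adjusted p of 0.0496. In the branches to serine, glycerol phosphate and glycogen, 3 of 8 rose in wild type and 5 of 8 in mutants. Gfpt1, of the hexosamine branch, was detected on 0 arrays and not tested. On the glycogen side, wild-type CD71-negative and CD71-positive means were 5.67 and 5.69 for Ugp2, 5.51 and 5.50 for Pgm2 and 6.08 and 5.82 for Pygb. Shmt1, detected on 0 CD71-negative arrays, was tested through CD71-positive arrays alone, so it could hardly be called as falling. Psat1, an aminotransferase of serine synthesis, rose by 2.11 ± 0.19 and 2.26 ± 0.19, or 4.33-fold and 4.79-fold. Phgdh, the first enzyme of that branch, rose by 0.21 ± 0.05 and 0.25 ± 0.05. Shmt2, the mitochondrial serine hydroxymethyltransferase, was the 1 gene of these branches that rose with genotype, by 0.24 ± 0.04 in CD71-positive cells with an adjusted p of 0.0345, detected there on 2 of 3 mutant arrays.

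In the citric acid cycle, 3 of 15 tested genes rose in wild type and 5 of 15 in mutants, and 0 fell. Sdhc, detected on 0 CD71-negative arrays, was tested through CD71-positive arrays alone. Suclg2, which rose in mutants (limma adjusted p 0.00514), was detected on 0 mutant CD71-negative arrays. A gene that CD71-negative arrays do not detect can hardly be called as falling. Fh1, fumarate hydratase, rose by 1.27 ± 0.17 and 1.60 ± 0.17, and Idh3a, a subunit of isocitrate dehydrogenase, by 0.48 ± 0.11 and 0.80 ± 0.11. Of 6 genes of gluconeogenesis, 0 could be tested. Over all tested genes, 12% rose and 13.1% fell in wild type and 14.5% rose and 14.3% fell in mutants.

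Gapdh is often used as a reference gene, and 11 other reference genes were tested. In wild type 6 rose and 1 fell, and in mutants 6 rose and 0 fell. All tested genes gave 12% and 13.1% in wild type and 14.5% and 14.3% in mutants. Hprt1, a purine salvage enzyme, rose by 2.02 ± 0.14 and 1.91 ± 0.14, and Ppia, a peptidyl-prolyl isomerase, by 0.72 ± 0.06 and 0.77 ± 0.06. Actb, cytoplasmic actin, fell by 0.87 in wild type (SE 0.21, adjusted p 0.0152), a call that 18 of 24 alternative settings kept, and its mutant value of -0.54 ± 0.21 did not pass. Gapdh is also known for many processed pseudogenes in the mouse, and whether its probe reads any of them was not tested.

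The genes whose centred values over the 12 arrays lay nearest to a member were found by root mean square difference. For Ldha they were Prpf19, a splicing factor, at 0.13, Eef1g, a translation elongation factor subunit, at 0.18 and 2310016E02Rik at 0.20, where Ldha itself varied with a root mean square of 0.70. For Slc2a1 they were Tfip11 at 0.10, Vamp3 at 0.11 and Senp3 at 0.11, against its own 0.17, which is what a flat profile would give. The nearest gene to Pkm2 was LOC100046039 at 0.14, to Gapdh LOC100042427 at 0.15 and to Eno1 Slc4a2, an anion exchanger, at 0.26. For Pfkl it was Polr1e at 0.12, for Aldoa Smad3 at 0.10 and for Pgam1 Wars at 0.03. Arrays of a group share their sort, so these are descriptions over 4 groups of 3.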

How the data were processed

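RNA of 12 sorted thymocyte samples was amplified, biotin-labelled and hybridised to single-colour arrays, per the labels' protocols. Per the file headers, the deposited table holds for each gene and array an intensity on a linear scale and a detection p-value, without probe identifiers. The submitters' processing notes name RMA for the authors' second deposited table of processed intensity values, used as an alternative. Signals were corrected and quantile-normalized with neqc (offset 16) in limma 3.58.1 under R 4.3.3. The offset understates changes of dim genes. The 4 group means were estimated jointly from the 12 arrays (lmFit and eBayes), two-sided, with Benjamini-Hochberg adjustment over 8247 genes and an adjusted p under 0.05 as threshold. The fit was tested on simulated data. The number of arrays limits precision. The members and gene lists were chosen with earlier results of these data known. All members are named, as are up to 6 genes per list with the smallest p in the wild-type comparison, up to 3 in each other comparison, and the nearest genes. Alternatives varied normalization, background, filter, weights, blocks, brightness and single arrays. Correlations between the deviations of same-numbered arrays were mixed in sign, from -0.405 to 0.513, and do not settle whether these arrays belong together. Titles and descriptions number the CD71-positive samples differently, so array numbers were not treated as pairs in the main fit.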

Additional observations from a re-analysis of the deposited data

How the results depend on the processing

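Of 947 values of the 8 members under alternative settings, 895 stayed on their side of the threshold with no or a smaller move. A larger move was marked for 31, 19 passed newly and 2 no longer passed. The sign turned in 35, some of them among the 895, and 0 of the 35 concerned a value past the threshold. Between wild-type subsets, where 0 members passed, 1 passed after scaling to the 75th percentile (Gapdh), 1 with array weights (Aldoa at -0.48, adjusted p 0.0499), 2 with the replicate block (Gapdh and Ldha, adjusted p 0.0374 and 0.0343) and 3 with array brightness as a covariate, chosen after seeing the data. Leaving out single arrays gave 0 to 1. Between mutant subsets, where 2 passed, 5 passed with array weights, adding Pfkl, Pgam1 and Pkm2. There 3 passed, with Pgam1 added, under cyclic loess, normexp, no background correction, the authors' processed values, trended and robust eBayes and a fit of only the 2 groups, and 3, with Pkm2 added, with the brightness covariate, and leaving out single arrays gave 1 to 3. Between genotypes and for the difference of differences 0 passed in every alternative run. Scaling to the 75th percentile moved the median of all genes by 0.15 in wild type and 0.43 in mutants. Relative to it, mutant Gapdh and Ldha rose by 1.28 and 1.45, and Slc2a1 turned from -0.08 to 0.24 before and -0.19 after that shift was taken off. Calls over all genes in wild type and mutants were 7.45% and 9.71% with that scaling and 9.78% and 11.5% with no filter, and 52.8% in mutants with array weights. Between genotypes, calls over all genes ran from 0% to 5.59% in CD71-negative and 0% to 2.51% in CD71-positive cells. The cause of these changes was not tested, except that an unfiltered table adds undetected genes. Dim members such as Pgam1 lie close to the background.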
